A study of Mus musculus with 12 samples.

Results

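The genes of 8 secreted proteins of the acute phase and of antimicrobial defense were followed in mouse lung: Saa3, Lcn2, Hp, Lbp, Reg3g, Slpi, Cp and Ptx3. Members were taken by name, as all probe sets whose array annotation gives 1 symbol equal to a member. This gave 8 genes and 17 probe sets, of 18194 genes and 45101 probe sets on the array. All mice were male A/J, an inbred strain with reactive airways, aged 8 to 10 weeks by the labels, and RNA came from whole frozen lungs on the fourth day after particles or vehicle. The 4 groups held 3 arrays each, from 3 animals per group. OVA/PM mice received ovalbumin (OVA) at 0.4 mg/kg intraperitoneally on day 0 and at 30 mg/kg into the trachea on day 14, and then aspirated 50 µl of a 10 mg/ml suspension of particulate matter (PM) collected from the air of Baltimore. OVA mice received the ovalbumin with PBS in place of particles, PM mice the particles with PBS in place of ovalbumin, and Control mice PBS throughout. As a model the design has limits: the particles were 1 pooled urban collection, given as a single bolus, and whole lung mixes airway, alveolar, vascular and blood cells.

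The acute phase response is the change in secreted proteins that follows infection or injury. Interleukin-6, interleukin-1 and related cytokines drive it through STAT3, C/EBP and NF-κB factors, in the liver for the plasma proteins and locally in epithelium and macrophages for several others. In the lung such proteins withhold iron from bacteria, kill them directly, present their products to receptors, or restrain the proteases that neutrophils release.

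The stretches upstream of the start site are shown for Saa3, Lcn2 and Reg3g, since these 3 members had the largest differences from Control. The sequences are from RefSeq, build GRCm38.p6, and run 5′ to 3′ on the minus strand, from 200 bases before the start site to the base before it. The Saa3 window belongs to a transcript that starts at base 46715676, inside the span of the gene given below. Capitals mark matches to the TATA box motif TATAAA, read on either strand, and to the NF-κB motif (kappa B site).
Saa3, chr7:46715677-46715876: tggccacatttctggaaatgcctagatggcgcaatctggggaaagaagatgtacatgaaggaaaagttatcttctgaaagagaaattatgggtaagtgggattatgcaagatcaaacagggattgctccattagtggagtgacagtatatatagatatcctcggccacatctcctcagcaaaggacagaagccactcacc
Lcn2, chr2:32387740-32387939: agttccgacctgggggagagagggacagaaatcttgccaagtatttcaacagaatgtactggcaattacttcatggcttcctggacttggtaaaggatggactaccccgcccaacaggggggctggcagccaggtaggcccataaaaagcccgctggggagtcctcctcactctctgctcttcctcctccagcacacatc
Reg3g, chr6:78468875-78469074: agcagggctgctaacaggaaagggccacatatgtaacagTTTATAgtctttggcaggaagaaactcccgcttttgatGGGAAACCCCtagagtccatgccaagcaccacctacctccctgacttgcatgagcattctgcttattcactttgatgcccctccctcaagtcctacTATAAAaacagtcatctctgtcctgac

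Both strands of each window were searched, from 250 bases before to 50 bases after the start site. RefSeq windows were at hand for 6 member genes (7 windows, of which Cp has 2). Of all 32851 windows, 13.6% hold TATAAA, 11.5% hold the C/EBP motif TTNNGNAAT, 8.3% the STAT motif TTCNNNGAA, 4.51% the kappa B site and 7.81% the AP-1 motif TGANTCA. Reg3g has TATAAA at -27 to -22, TTTATA, its reverse complement, at -161 to -156, and a kappa B site at -123 to -114, counted from the start site. Slpi has the C/EBP motif at -241 to -233 and at -65 to -57, Cp has AP-1 in the first window at -177 to -171 and, in the second, TATAAA at -25 to -20 with its reverse complement overlapping it, and Ptx3 has overlapping kappa B matches across the start site. In the windows of Saa3 and Lcn2 these letters did not occur. These matches describe the sequence alone.

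Before the results, some features of the arrays need stating. The names OVA and PM carry a doubt. The printed fold changes of the single exposures could be set against these arrays for 28 values: rounded to the 1 decimal printed, 28 equalled the ratio of linear means once the OVA and PM names were swapped, against 4 as labelled. Those 4 belong to genes with the same printed value for both exposures, so no value matched the labels alone. The labels were kept here, and the lungs are called OVA-labelled and PM-labelled. Directions for those 2 groups hold only as far as the labels do. Control replicate 1 carried liver transcripts. All 8 hepatocyte markers were highest there, and 7 of them reached the median of all values, 4.93 on the log2 scale, in no other array. Albumin (Alb) read 13.38 there and 2.64 to 3.39 in the other 11 arrays. Hp, Lbp and Cp are also made by hepatocytes, so every comparison with Control is given with that array and, where it changes a call, without it. Control replicate 3 had the highest mean of the neutrophil markers among the 12 arrays, 8.60, against 6.09 and 6.70 in Control replicates 1 and 2. OVA/PM replicate 3 stood apart in the spiked controls BioB and BioC, which averaged 7.01 there and 4.09 to 4.39 in the other 11 arrays. Striated muscle markers were low in all OVA/PM arrays. They averaged 6.79, 9.73 and 9.03 in replicates 1, 2 and 3, against 10.47 to 12.47 in the other groups. This difference goes with the group, and its cause was not tested. OVA/PM replicate 1, the lowest in these markers, was also the lowest OVA/PM array for 6 members. Airway and alveolar markers were present throughout: the club cell protein gene Scgb1a1 read 15.85 to 16.11 and the surfactant gene Sftpc 15.40 to 15.71 over all arrays.

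**Figure D1:**
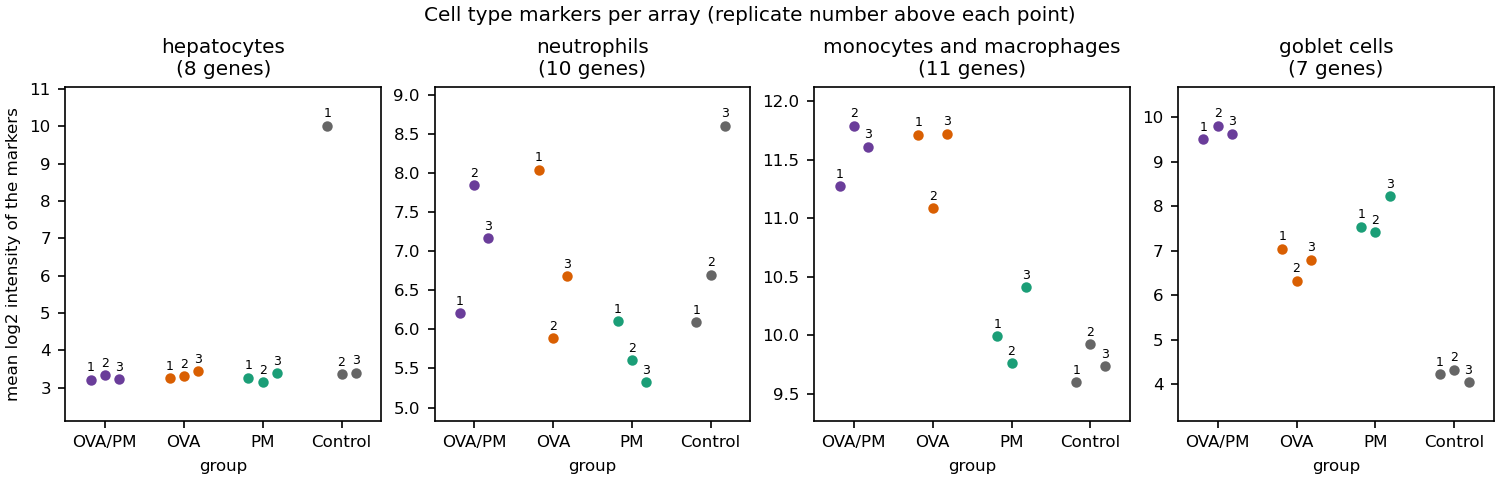
Mean log2 intensity of the marker genes of hepatocytes, neutrophils, monocytes and macrophages, and goblet cells in each array (y axis), by group (x axis), with the replicate number above each point. The hepatocyte mean is 10.01 in Control replicate 1 and between 3.14 and 3.44 in the other 11 arrays.

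Relative to Control, Saa3, Lcn2, Reg3g, Slpi and Cp rose in OVA/PM lungs, and Saa3, Lcn2, Reg3g and Cp rose in OVA-labelled lungs. No member passed the test in PM-labelled lungs. Pairs of groups were compared with limma on the deposited log2 values, and a call is an adjusted p under 0.05 over all probe sets tested. The test took in probe sets for which 1 or both groups had every array at 4.93 or above, and where a gene has several probe sets the one with the highest mean stands for it. This kept 7 of the 8 members in every comparison, all but Ptx3. In OVA/PM against Control 5 of 7 were higher and 0 lower, while 10.9% of the 22568 probe sets tested were higher. In OVA against Control 4 of 7 were higher and 0 lower, while 8.67% of 22528 probe sets were higher. Single arrays move these backgrounds: with 1 array left out, 1279 to 2240 probe sets were higher in OVA/PM (2449 with all arrays, fewest without Control replicate 2) and 236 to 2236 in OVA (1954 with all arrays, 236 without OVA replicate 3, 373 without Control replicate 2, 522 without OVA replicate 1 and 642 without Control replicate 1). In PM against Control 0 of 7 passed, and 0.0494% of 22276 probe sets were higher. The members are counted as genes and these shares as probe sets. Over genes, each by its brightest probe set, 13.9%, 11.2% and 0.0896% were higher in OVA/PM, OVA and PM lungs. At an unadjusted p under 0.05 limma gave 2 members, Saa3 and Reg3g, among 1814 of the probe sets tested. SAM, which was read by its q under 0.05, called 0 members and 39 of the 22276 probe sets. The median log2 fold change over the 7 members was 1.99 in OVA/PM against Control (-0.03 over all probe sets tested), 1.24 in OVA against Control (-0.05) and 0.28 in PM against Control (0.01). In whole lung, more cells of a type and more RNA per cell cannot be told apart.

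**Figure D2:**
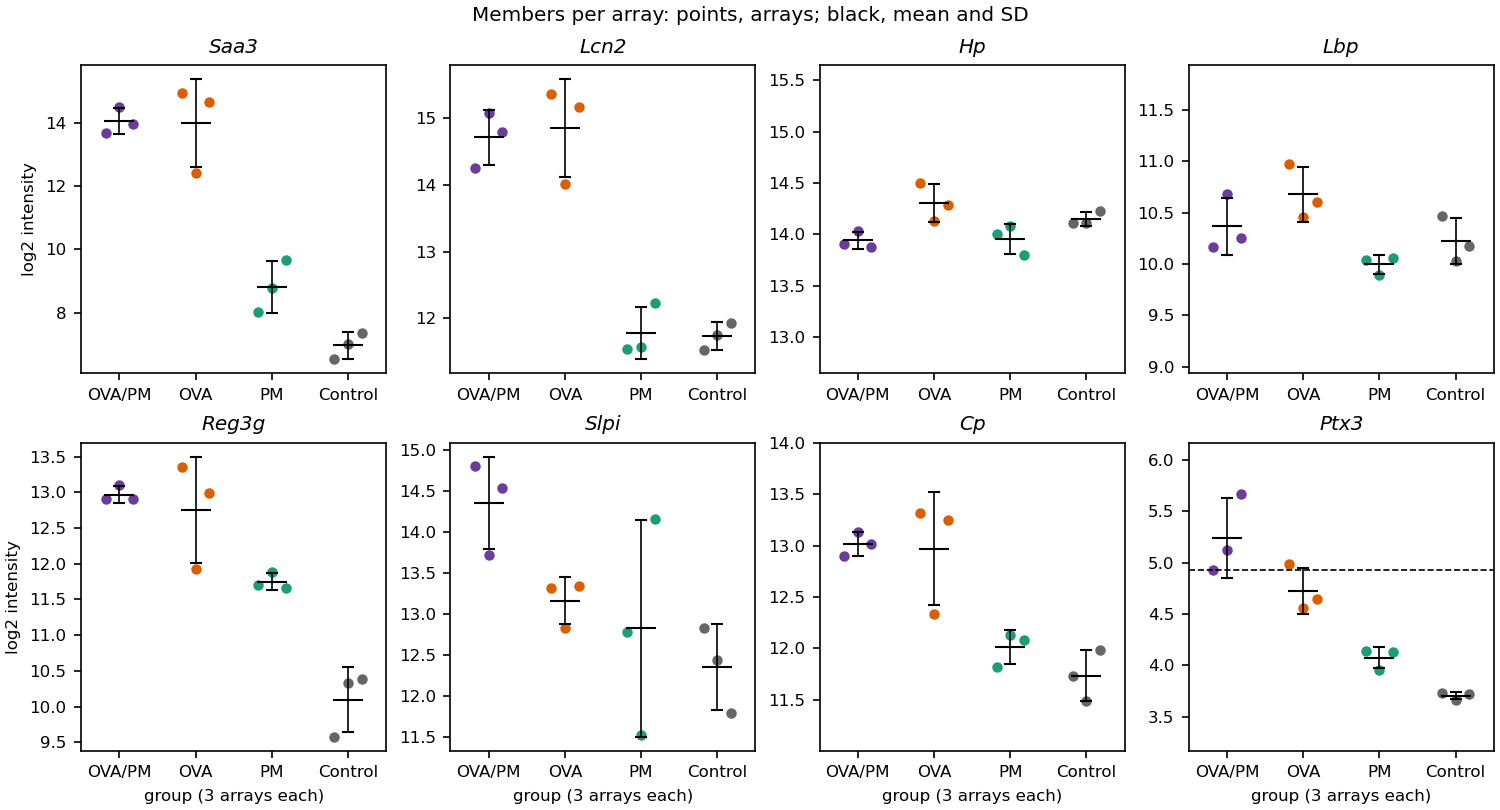
Log2 intensity (y axis) of the 8 members in each array, by group (x axis); points are arrays, black bars the mean and SD of 3 arrays, and the dashed line for Ptx3 the filter level of 4.93. Saa3 and Lcn2 read high in OVA/PM and OVA arrays and low in PM and Control arrays, while all 12 arrays of Hp lie between 13.79 and 14.50.

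Saa3 (chr7:46711998-46719615), a serum amyloid A that in mice is made mostly outside the liver, had the largest differences among the members. Its log2 values were 13.69, 14.49 and 13.96 in OVA/PM lungs, 14.93, 12.41 and 14.64 in OVA-labelled lungs, 8.02, 8.78 and 9.66 in PM-labelled lungs, and 6.53, 7.01 and 7.35 in Control lungs. The OVA/PM and OVA arrays overlapped each other and lay above all PM arrays, which in turn lay above all Control arrays. Against Control, Saa3 was 135-fold higher in OVA/PM lungs (95% interval 85.3 to 215, adjusted p = 8.86e-05 from limma). It was 130-fold higher in OVA-labelled lungs (interval 41.7 to 408, adjusted p = 0.00743 from limma), where replicate 2 lay well under the other arrays. The ratio for PM-labelled lungs was 3.61 (interval 1.75 to 7.44, unadjusted p = 0.00461, adjusted p = 0.359 from limma). With all 3 PM arrays above all Control arrays, that difference did not pass the threshold over all probe sets.

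Lcn2 (chr2:32384637-32387739) encodes lipocalin 2, which binds the siderophores with which bacteria take up iron. It read 14.26, 15.08 and 14.80 in OVA/PM lungs, 15.36, 14.01 and 15.17 in OVA-labelled lungs, 11.54, 11.56 and 12.23 in PM-labelled lungs, and 11.52, 11.75 and 11.93 in Control lungs. The 6 arrays with ovalbumin in the label lay above the other 6 without overlap. Lcn2 was 7.88-fold higher in OVA/PM than in Control lungs (interval 5.41 to 11.5, adjusted p = 0.000806 from limma) and 8.67-fold higher in OVA-labelled lungs (3.12 on the log2 scale, SE 0.36; limma, adjusted p = 0.00993). PM-labelled and Control lungs overlapped, with a ratio of 1.03 and an interval of 0.719 to 1.48.

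Reg3g (chr6:78466269-78468874) encodes a secreted lectin that kills Gram-positive bacteria and is made by gut and airway epithelium. It read 12.90, 13.10 and 12.90 in OVA/PM lungs, 13.35, 11.93 and 12.99 in OVA-labelled lungs, 11.70, 11.88 and 11.66 in PM-labelled lungs, and 9.58, 10.33 and 10.39 in Control lungs. All 9 exposed arrays lay above the highest Control array, as they did for Saa3 and Ptx3. Reg3g was 7.31-fold higher in OVA/PM than in Control lungs (interval 5.01 to 10.7, adjusted p = 0.000939 from limma) and 6.31-fold higher in OVA-labelled lungs (interval 3.16 to 12.6, adjusted p = 0.0161 from limma). Between PM-labelled and Control lungs the ratio was 3.14 (interval 2.14 to 4.59, unadjusted p = 0.000287, adjusted p = 0.128 from limma). The call in OVA-labelled lungs was lost without OVA replicate 3 (adjusted p = 0.0706 from limma) and without Control replicate 2 (adjusted p = 0.0561 from limma).

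Slpi (chr2:164354070-164356507) encodes the secretory leukocyte protease inhibitor, which blocks neutrophil elastase and also kills bacteria. It read 14.79, 13.71 and 14.53 in OVA/PM lungs, 13.31, 12.82 and 13.33 in OVA-labelled lungs, 12.78, 11.52 and 14.16 in PM-labelled lungs, and 12.83, 12.44 and 11.79 in Control lungs. All OVA/PM arrays lay above all OVA and all Control arrays, while PM replicate 3 lay within the OVA/PM range and PM replicate 2 under every other array. Slpi was 3.99-fold higher in OVA/PM than in Control lungs (interval 2.19 to 7.26, adjusted p = 0.0133 from limma). Its ratio to Control was 1.75 in OVA-labelled lungs (interval 1.08 to 2.84, adjusted p = 0.0951 from limma), and OVA and Control arrays overlapped. For PM-labelled lungs it was 1.38 with an interval of 0.455 to 4.19, the widest among the members in that comparison.

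Cp (chr3:19956933-20009750) encodes ceruloplasmin, the copper protein of plasma that oxidizes iron. By its brightest probe set, 1448734_at, it read 12.90, 13.13 and 13.02 in OVA/PM lungs, 13.32, 12.34 and 13.25 in OVA-labelled lungs, 11.82, 12.13 and 12.08 in PM-labelled lungs, and 11.73, 11.48 and 11.98 in Control lungs. The OVA/PM and OVA arrays lay above all PM and Control arrays, which overlapped each other. Cp was 2.43-fold higher in OVA/PM than in Control lungs (interval 1.90 to 3.11, adjusted p = 0.00311 from limma) and 2.36-fold higher in OVA-labelled lungs (interval 1.45 to 3.84, adjusted p = 0.0362 from limma). Control replicate 1, with the liver transcripts, lay between the other Control arrays. Without it the OVA/PM difference was 1.28 on the log2 scale, as with it, and the OVA difference was 1.24 with an adjusted p of 0.0903 from limma. The OVA call held only without OVA replicate 2 (1.55, adjusted p = 0.00747 from limma) and was lost without each of the other 5 arrays.

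The 8 probe sets of Cp differed from each other. Of these, 1448734_at, 1417495_x_at, 1417494_a_at and 1455393_at rose in OVA/PM lungs, with log2 fold changes of 1.28 to 2.18, and in OVA-labelled lungs, with 1.24 to 1.90. The largest was that of 1455393_at, which read 11.81, 12.06 and 12.36 in OVA/PM lungs against 9.72, 9.70 and 10.26 in Control lungs (adjusted p = 0.00171 from limma). Another, 1417496_at, had log2 fold changes of 0.77 and 1.14 that did not pass (adjusted p = 0.101 and 0.0524 from limma). The other 2 that were tested lay slightly under Control: 1417497_at had log2 fold changes of -0.24 in OVA/PM and -0.22 in OVA arrays, and 1448735_at had -0.16 and -0.09, none past the threshold. The last, 1441326_at, lay under 4.93 in 10 of 12 arrays and was not tested. Which transcripts of Cp each probe set reads was not examined here.

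**Figure D3:**
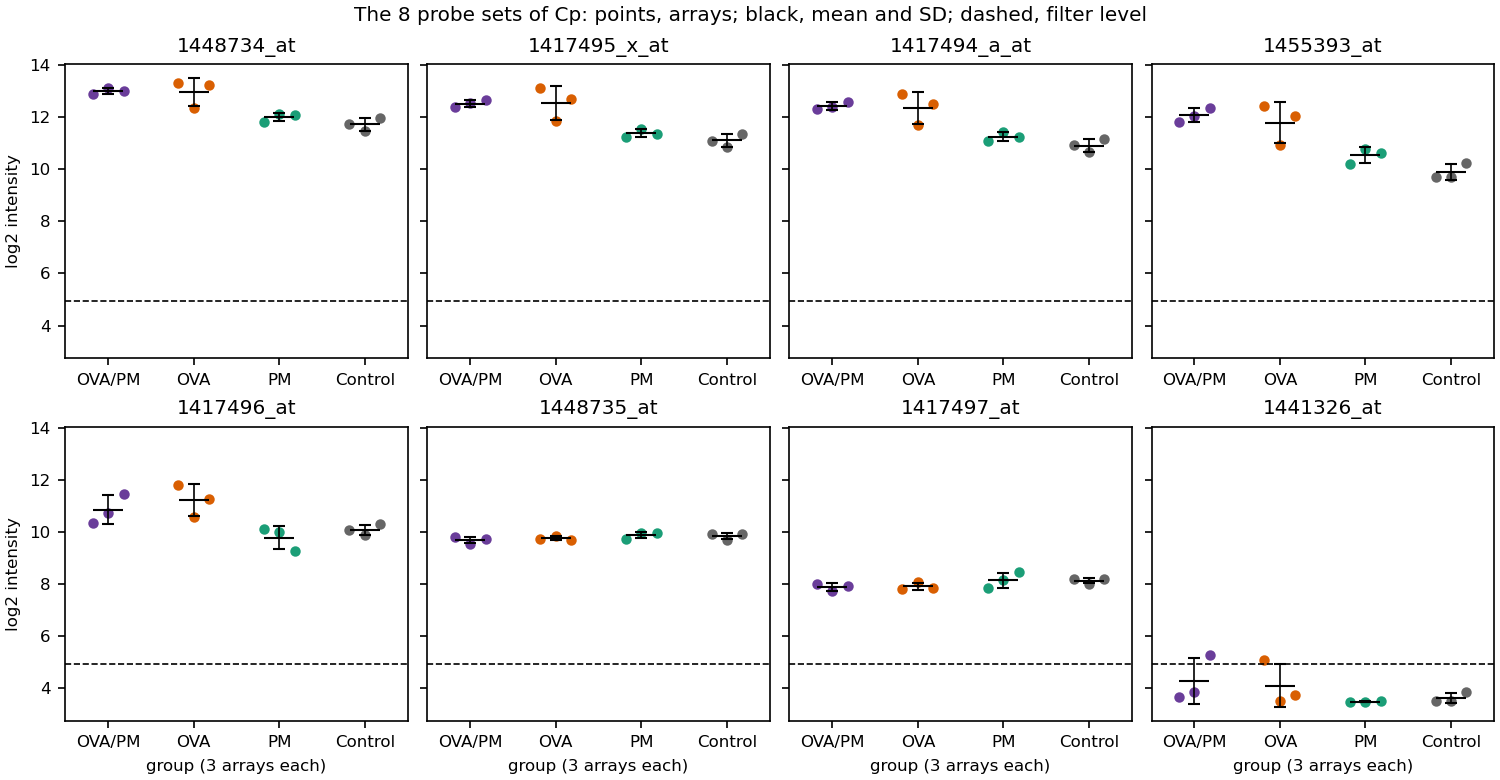
Log2 intensity (y axis) of the 8 probe sets of Cp in each array, by group (x axis), ordered by mean level; points are arrays, black bars the mean and SD of 3 arrays, and the dashed line the filter level of 4.93. The mean of 6 of the probe sets is higher in OVA/PM and OVA than in Control arrays, while 1448735_at lies between 9.54 and 9.95.

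Hp and Lbp, whose products are carriers in plasma, did not pass the limma test of 2 groups described above in any comparison. Lbp passed in OVA against PM under other settings, given below. Hp (chr8:109575128-109579172) encodes haptoglobin, which binds free hemoglobin. It read 13.91, 14.03 and 13.88 in OVA/PM lungs, 14.50, 14.13 and 14.29 in OVA-labelled lungs, 14.00, 14.08 and 13.79 in PM-labelled lungs, and 14.11, 14.11 and 14.22 in Control lungs. The OVA/PM arrays lay just under all Control arrays, at a ratio of 0.865 (interval 0.744 to 1.01, adjusted p = 0.146 from limma). SAM called that difference, with a q of 0.0264, among 9638 of 22568 probe sets called, 5187 of them lower. Lbp (chr2:158306493-158332852) encodes the protein that hands bacterial lipopolysaccharide to CD14. It read 10.16, 10.68 and 10.25 in OVA/PM lungs, 10.98, 10.46 and 10.61 in OVA-labelled lungs, 10.04, 9.89 and 10.05 in PM-labelled lungs, and 10.46, 10.03 and 10.18 in Control lungs. Its ratio to Control was 1.10 in OVA/PM lungs (interval 0.819 to 1.49) and 1.37 in OVA-labelled lungs (interval 1.02 to 1.84, adjusted p = 0.111 from limma), with overlap in both. Control replicate 1 was the highest Control array for Lbp. Without it the log2 fold change of Lbp was 0.26 in place of 0.14 in OVA/PM lungs and 0.58 in place of 0.46 in OVA-labelled lungs, and neither passed. The second probe set of Lbp, 1447520_at, lay under 4.93 in all 12 arrays.

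Ptx3 (chr3:66219887-66225806), a long pentraxin that marks microbes and damaged cells for uptake, lay near the filter level. It read 4.93, 5.12 and 5.67 in OVA/PM lungs, 4.98, 4.56 and 4.64 in OVA-labelled lungs, 4.14, 3.96 and 4.13 in PM-labelled lungs, and 3.74, 3.66 and 3.72 in Control lungs. OVA/PM replicate 1 lay just under the filter level, so Ptx3 was not tested with the filter, and its second probe set, 1456903_at, lay under the level in all 12 arrays. All Control and PM arrays and 2 of 3 OVA arrays lay under the level too, so the differences below are partly between values under it. In the fit of all 45101 probe sets, Ptx3 had a log2 fold change of 1.53 in OVA/PM lungs (SE 0.20, adjusted p = 0.0144 from limma) and of 1.02 in OVA-labelled lungs (SE 0.12, adjusted p = 0.0253 from limma). Against the filter level itself, OVA/PM lungs were at least 1.24-fold higher, while the mean of OVA-labelled lungs lay under the level and no fold is given. In that fit 6 of 8 members were higher in OVA/PM lungs, where 4.6% of all probe sets were, and 4 of 8 in OVA-labelled lungs, where 2.76% were and Cp did not pass. The Ptx3 call in OVA/PM lungs was lost without Control replicate 2 (adjusted p = 0.0694 from limma), and that in OVA-labelled lungs without OVA replicate 3 and without each Control array (adjusted p = 0.0617 to 0.0994 from limma).

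**Figure D4:**
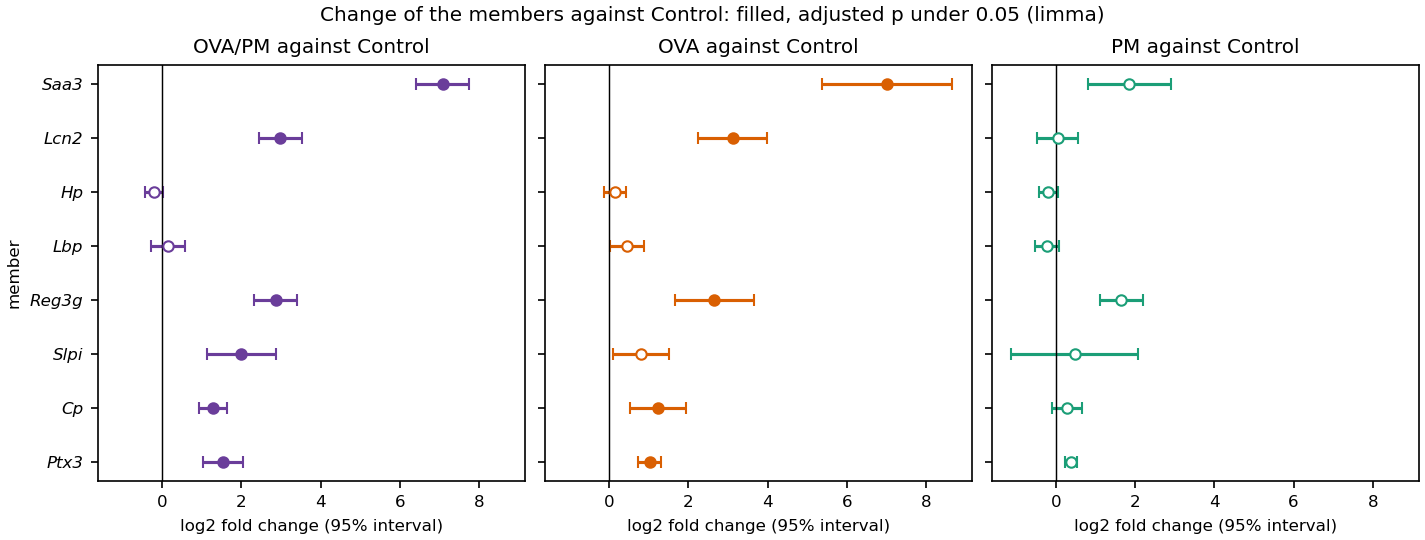
Log2 fold change against Control (x axis) with its 95% interval for each member (y axis) in OVA/PM, OVA and PM arrays, 3 arrays per group; filled points passed an adjusted p of 0.05 in limma, and Ptx3 is from the fit without a filter. Saa3 stands at 7.08 and 7.03 in OVA/PM and OVA arrays and at 1.85, open, in PM arrays.

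The exposures were also set against each other. In OVA/PM against OVA, 0 of 7 members passed, and 0.116% of 22409 probe sets (0.15% of genes) were higher. Slpi had the lowest p, at a ratio of 2.28 (interval 1.39 to 3.75, unadjusted p = 0.00619, adjusted p = 0.41 from limma) and no overlap of the arrays. Hp had a ratio of 0.776 (unadjusted p = 0.0213, adjusted p = 0.504 from limma), also without overlap. These 2 members were those with an unadjusted p under 0.05 in that comparison, among 1965 of the 22409 probe sets tested. SAM called 0 members, and 91 of the 22409 probe sets. For Saa3, Lcn2, Reg3g and Cp the ratios of OVA/PM to OVA were 1.04, 0.909, 1.16 and 1.03, with intervals as wide as 0.347 to 3.11 for Saa3.

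In OVA/PM against PM, 4 of 7 members were higher, against 7.12% of 22457 probe sets (9.13% of genes). Saa3 was 37.5-fold, Lcn2 7.64-fold, Reg3g 2.33-fold and Cp 2.01-fold higher in OVA/PM arrays (adjusted p = 0.00155, 0.00215, 0.00203 and 0.00493 from limma). In the fit of all probe sets, where 2.77% were higher, Ptx3 was the fifth of 8 (log2 fold change 1.17, adjusted p = 0.0457 from limma), a call lost without 4 of the 6 arrays. In OVA against PM, 2 of 7 were higher, against 3.24% of 22434 probe sets (4.23% of genes). These were Saa3 at 36.1-fold and Lcn2 at 8.41-fold (adjusted p = 0.0346 and 0.0331 from limma). Lbp had a ratio of 1.61, with no overlap and an adjusted p of 0.0525 from limma. It passed by SAM (q = 0.0284) and in the limma fit of all groups (adjusted p = 0.0282). Those settings called 6258 and 3296 of the 22434 probe sets, against 1168 in the fit of the 2 groups. The count of 2 members rests on single arrays, as does the count over all probe sets. Without OVA replicate 2, 5 members passed, among 3584 of 22600 probe sets. Without any other array of the pair 0 members passed, and 4 to 78 probe sets did.

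The order of the group means differed between members. For Saa3, Reg3g, Slpi, Cp and Ptx3 it ran OVA/PM, OVA, PM, Control from high to low, for Lcn2 OVA, OVA/PM, PM, Control, for Lbp OVA, OVA/PM, Control, PM, and for Hp OVA, Control, PM, OVA/PM. The neighbours in the order that differed past the threshold were OVA and PM for Saa3, and OVA/PM and PM for Lcn2. All other neighbours were not separated past the threshold, PM and Control included for every member.

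A fit of all 4 groups asked whether the combined exposure differed from the sum of the single ones on the log2 scale. In that fit 0 of 7 members passed, and 0.0264% of 22718 probe sets passed in either direction. Reg3g had the lowest p, with an interaction of -1.44 (SE 0.46, unadjusted p = 0.00987, adjusted p = 0.643 from limma), and was the only member with an unadjusted p under 0.05. Of the 22718 probe sets tested, 1415 had an unadjusted p under 0.05 from limma. On the linear scale, the combined difference from Control divided by the sum of the single differences was 0.82 ± 0.34 for Saa3, 0.84 ± 0.28 for Lcn2, 0.79 ± 0.18 for Reg3g and 0.86 ± 0.26 for Cp (SE by the delta method, n = 3 per group). It was 2.11 ± 1.47 for Slpi, 1.47 ± 0.42 for Ptx3 and 0.48 ± 0.66 for Lbp. Each of these linear ratios lay within 2 SE of 1, the value for a plain sum. On the log2 scale the same ratio was 0.67 ± 0.07 for Reg3g and 0.80 ± 0.09 for Saa3, more than 2 SE under 1. Lcn2, Cp, Slpi, Ptx3 and Lbp lay within 2 SE of 1 on that scale too. For Hp the single differences nearly cancelled, so no ratio is given.

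In the groups given ovalbumin, by their labels, the members ranked the replicates much alike. OVA replicate 2 was the lowest array of its group for 8 of 8 members, and OVA replicate 1 the highest for 7. OVA/PM replicate 2 was the highest of its group for 6 members and replicate 1 the lowest for 6. Neutrophil and macrophage markers were also lowest in OVA replicate 2: the mean of the neutrophil markers was 8.04, 5.89 and 6.68 in replicates 1, 2 and 3, and that of the macrophage markers 11.72, 11.09 and 11.72. Goblet cell, fibroblast and red blood cell markers were lowest there too, while T cell, endothelial, club cell and alveolar type 2 markers were highest. Without that array 5283 of 22683 probe sets passed in OVA against Control, against 4325 of 22528 with it. How many of all probe sets rank the replicates this way was not counted. Over all groups the neutrophil markers spread from 6.21 to 7.85 in OVA/PM, 5.89 to 8.04 in OVA and 5.32 to 6.10 in PM arrays, against 6.09 to 8.60 in Control. The value of 8.60 was that of Control replicate 3, against 6.09 and 6.70 in replicates 1 and 2. Control replicate 3 was also the highest Control array for 5 members. Of the 5 neutrophil markers tested in limma, 0 passed against Control in OVA/PM or OVA arrays, with that replicate included. Only 1, Mmp8 in OVA/PM arrays, had an unadjusted p under 0.05 (0.0213 from limma), as did 8406 of the 22568 probe sets tested there. Of the neutrophil list, Mpo and Elane lay under 4.93 in all arrays, while S100a8 lay above it in all of them. Macrophage markers ranged from 11.27 to 11.79 in OVA/PM, 11.09 to 11.72 in OVA and 9.76 to 10.41 in PM arrays, against 9.60 to 9.93 in Control. Of the 11 tested, 9 rose in OVA/PM, 8 in OVA and 0 in PM arrays. Over all genes tested, 13.9% rose and 9.73% fell in OVA/PM arrays, and 11.2% rose and 7.58% fell in OVA arrays. Of the endothelial markers, 5 of 6 fell in OVA/PM and 4 of 6 in OVA arrays. T cell markers rose for 3 of 5 tested in OVA/PM and 3 of 4 in OVA arrays, and fibroblast markers for 2 of 6 and 3 of 6. Of the striated muscle markers, 3 of 8 fell in OVA/PM and 0 in OVA arrays. In the fit of all probe sets, macrophage markers rose for 8 and 7 of 11 in OVA/PM and OVA arrays. There T cell markers rose for 2 and 1 of 5 and fibroblast markers for 2 and 2 of 6. Endothelial markers fell for 2 and 2 of 6, and striated muscle markers for 0 and 0 of 8. In that fit 7.46% of all genes rose and 4.61% fell in OVA/PM arrays, and 4.62% and 2.28% in OVA arrays. Goblet cell markers went another way, with means of 9.52 to 9.81 in OVA/PM, 6.33 to 7.05 in OVA, 7.42 to 8.23 in PM and 4.05 to 4.33 in Control arrays. The part of these cells in the changes of the members was not tested.

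Several other secreted antimicrobial proteins rose as well. Of 26 listed genes, 16 were tested in OVA/PM against Control, and 8 were higher and 0 lower. Of all genes tested there, 13.9% were higher and 9.73% lower. A gene high in 1 group can enter the test through that group. The counts of the lists are therefore also given from the fit of all probe sets. There 8 of 26 were higher, with a median log2 fold change of 0.06, while 7.46% of all 18194 genes were higher and their median was 0.04. In OVA against Control 8 of 17 were higher, against 11.2% of all genes tested, a count that was 4 without Control replicate 1. In the fit of all probe sets it was 6 of 26, against 4.62% of all genes. Wfdc17, a relative of Slpi with the same protein fold, was 17.0-fold higher in OVA/PM lungs (adjusted p = 0.00153 from limma). It read 11.92, 12.68 and 12.08 there, 12.83, 11.61 and 12.46 in OVA-labelled lungs, 8.62, 8.07 and 9.65 in PM-labelled lungs, and 7.43, 8.16 and 8.81 in Control lungs. Ltf, lactoferrin, which binds iron, was 7.07-fold higher, Pigr, the receptor that carries antibodies across epithelium, 6.73-fold, and Pglyrp1, which binds bacterial cell walls, 5.87-fold (adjusted p = 0.00903, 0.00118 and 0.00614 from limma). In PM-labelled lungs, where 0.0896% of all genes tested were higher, 1 of 16 passed. This was Bpifb1, a secreted airway protein, at a log2 fold change of 1.48 (adjusted p = 0.0404 from limma). It did not pass without Control replicate 1. S100a8 and S100a9, granule proteins of neutrophils, did not pass the test in any group: S100a8 averaged 12.55 ± 1.01 in OVA/PM, 12.42 ± 1.76 in OVA and 10.75 ± 1.20 in PM arrays, against 13.20 ± 1.37 in Control (SD, n = 3 each).

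Few genes of the acute phase list were measurable in lung. The list is wider than plasma proteins, and Il1rn and Tnfaip6 below are examples. Of 24 listed, 21 were on the array with a symbol of their own and 8 were tested in OVA/PM against Control, where 3 were higher and 1 lower. Of all genes tested there, 13.9% were higher and 9.73% lower. In the fit of all probe sets 3 of 21 were higher and 0 lower, with a median log2 fold change of 0.05. In that fit 7.46% of all genes were higher and 4.61% lower. Il1rn, the secreted blocker of the interleukin-1 receptor, was 26.9-fold higher in OVA/PM lungs (adjusted p = 0.000708 from limma), with a log2 fold change of 4.46 in OVA-labelled lungs (adjusted p = 0.0137 from limma). It read 10.83, 11.81 and 11.56 in OVA/PM lungs, 12.22, 9.81 and 11.28 in OVA-labelled lungs, 6.28, 5.63 and 6.14 in PM-labelled lungs, and 6.07, 7.07 and 6.81 in Control lungs. Orm1, a plasma carrier glycoprotein, was 5.14-fold higher in OVA/PM lungs (adjusted p = 0.0132 from limma). The Control arrays of Tnfaip6, a protein that binds hyaluronan, lay under the filter level, so that it entered the test through OVA/PM alone, where it was at least 1.47-fold higher. Hamp, hepcidin, which limits iron export, was 2.93-fold lower (adjusted p = 0.0463 from limma). It read 7.09, 7.84 and 7.53 in OVA/PM lungs against 9.99, 8.44 and 8.68 in Control lungs, the highest of them being the array with liver transcripts. Without that array 2 were higher and 1 lower, and without OVA/PM replicate 3, 2 were higher and 0 lower. Of 8 listed proteins that fall in plasma during the response, 1 was tested, Rbp4, the carrier of retinol, and did not pass (limma, log2 fold change -0.37, adjusted p = 0.467). In the fit of all probe sets 0 of 6 passed.

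The cytokines that induce the members were mostly too low to test. Of 12 listed, 10 were on the array, and 4 were tested in OVA/PM against Control, where 3 were higher, each of them tested only because its OVA/PM arrays reached the filter level. Of all genes tested in that comparison, 13.9% were higher. In the fit of all probe sets 4 of 10 were higher, against 7.46% of all genes, with a median log2 fold change of 1.31. Il6, the chief inducer of the hepatic response, read 8.87, 8.76 and 8.69 in OVA/PM lungs, 9.46, 5.64 and 8.04 in OVA-labelled lungs, 6.56, 4.81 and 4.17 in PM-labelled lungs, and 3.92, 5.80 and 4.21 in Control lungs. It was 17.5-fold higher in OVA/PM than in Control lungs (adjusted p = 0.00305 from limma), a ratio to Control arrays of which 1 of 3 reached the level, while OVA-labelled lungs overlapped Control (adjusted p = 0.0808 from limma). Osm, oncostatin M, a cytokine of the interleukin-6 family, was at least 1.70-fold higher and Il1a, interleukin-1 alpha, at least 1.72-fold higher in OVA/PM lungs, whereas all their Control arrays lay under the filter level. OVA replicate 2, lowest for the 8 members, was also the lowest OVA array for Il6, Il1rn, Osm and Il1a.

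Among receptors and relays of the response, 22 of 24 listed genes were tested, and 7 were higher and 1 lower in OVA/PM against Control. Of all genes tested there, 13.9% were higher and 9.73% lower. In the fit of all probe sets 6 of 23 were higher and 1 lower, with a median log2 fold change of 0.24. In that fit 7.46% of all genes were higher and 4.61% lower. Cd14, which takes lipopolysaccharide from the product of Lbp, read 10.94, 11.76 and 11.29 in OVA/PM lungs, 12.25, 10.58 and 11.76 in OVA-labelled lungs, 9.35, 9.48 and 9.63 in PM-labelled lungs, and 9.06, 9.40 and 9.35 in Control lungs. It was 4.17-fold higher in OVA/PM and 4.80-fold higher in OVA than in Control arrays (adjusted p = 0.00249 and 0.0223 from limma). Tlr2, a receptor for bacterial lipoproteins, was 3.37-fold higher in OVA/PM lungs, Ly96, the partner of the lipopolysaccharide receptor, 2.52-fold, and Socs3, the feedback inhibitor of interleukin-6 signals, 2.44-fold (adjusted p = 0.0138, 0.00177 and 0.00614 from limma). For OVA-labelled lungs 3 of 22 were higher and 3 lower, against 11.2% and 7.58% of all genes tested, and without Control replicate 1 none passed (22 tested). In the fit of all probe sets 0 of 23 were higher and 1 lower in OVA-labelled lungs, against 4.62% and 2.28% of all genes.

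Of 16 listed receptors, ligands and targets of the members, 10 were tested in OVA/PM against Control, and 3 were higher and 0 lower. Of all genes tested there, 13.9% were higher. In the fit of all probe sets 1 of 14 was higher, with a median log2 fold change of 0.05. That count is near the share of all genes, 7.46%. Fpr2, a receptor that serum amyloid A activates, was 2.97-fold higher in OVA/PM lungs and 3.35-fold higher in OVA-labelled lungs (adjusted p = 0.0173 and 0.0247 from limma). Hmox1, which breaks down heme taken up with haptoglobin, was 2.65-fold and 2.78-fold higher (adjusted p = 0.0129 and 0.0338 from limma). Selp, P-selectin, to which pentraxin 3 binds, was 3.42-fold higher in OVA/PM lungs (adjusted p = 0.0347 from limma). Without OVA/PM replicate 3 the count was 1. In OVA-labelled lungs it was 2 of 10, against 11.2% of all genes tested, and 0 without Control replicate 1. In the fit of all probe sets it was 0 of 14 there.

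**Figure D5:**
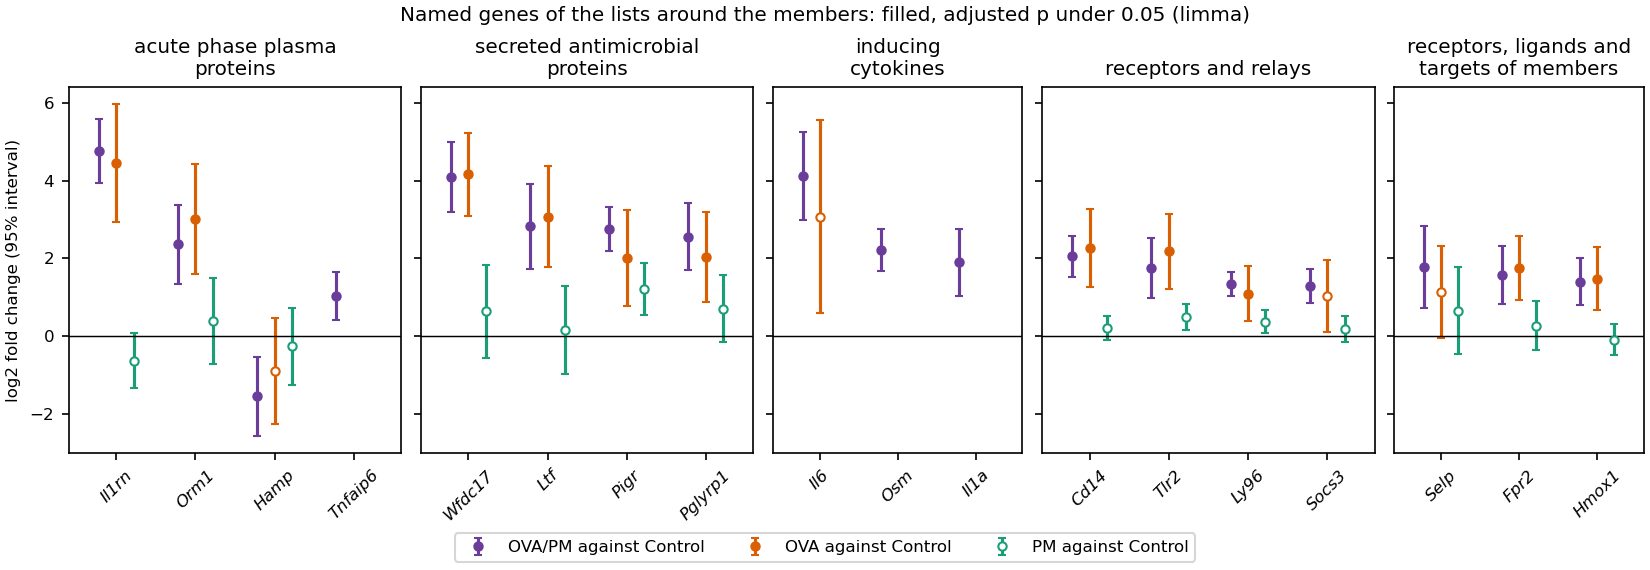
Log2 fold change against Control (y axis) with its 95% interval for the named genes of 5 lists (x axis), in OVA/PM, OVA and PM arrays, 3 arrays per group; filled points passed an adjusted p of 0.05 in limma, and a missing point means that the gene was not tested. Il1rn and Wfdc17 lie above 4 in OVA/PM and OVA arrays, and Hamp lies at -1.55 in OVA/PM arrays.

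Genes with a profile like that of the members were ranked by the root mean square difference from the mean of the members' z-scores, over 12 arrays and 11416 genes. The 6 nearest were Rab15, a small GTPase (0.105), Timp1, an inhibitor of metalloproteinases (0.128), Cd14 (0.137), Sap30, a subunit of a histone deacetylase complex (0.138), Deup1, a centriole assembly protein (0.149), and Milr1, an inhibitory receptor of mast cells (0.153). Timp1 averaged 9.13 ± 0.51 in OVA/PM, 9.08 ± 1.56 in OVA and 5.19 ± 0.45 in PM arrays, against 4.33 ± 0.33 in Control (log2, SD, n = 3 each). Of the members themselves, Lcn2 lay nearest to their mean profile, at rank 11, then Saa3 at 45 and Cp at 63, whereas Reg3g ranked 869, Lbp 1772, Slpi 2701 and Hp 4223. The arrays share their group structure, so this likeness describes these 12 arrays alone.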

How the data were processed

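Lung RNA was measured on Affymetrix whole-genome mouse expression arrays, with 3 arrays for each of 4 groups. The authors deposited log2 intensities computed with GCRMA, which corrects background by probe composition, normalizes the arrays together and summarizes the probes, so that a value depends on the other arrays of the set. MAS5 is also named in the submitters' processing notes, and versions are not given in the sources used here. Array medians ran from 4.84 to 5.03. Groups were taken from the sample titles. The members and gene lists were chosen with earlier results of these data known.

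Each pair of groups was fitted alone by limma (version 3.58.1, under R 4.3.3; Benjamini-Hochberg over all probe sets kept, threshold 0.05), in place of the SAM test that the methods name. The filter level was the median of all values, 4.93, in place of detection calls. Of the probe sets, 34958 had 1 symbol. Folds are powers of 2 of the log2 differences with 95% intervals. All 8 members and each probe set are named. From each pathway list the text names up to 4 genes that passed in OVA/PM against Control without overlap, by size of change, of the marker lists at most 2 genes each by mean level, and the 6 genes most like the members. Bpifb1, Mpo, Elane, Mmp8 and Rbp4 were named after their values were seen. Gene positions were taken from a RefSeq table of GRCm38.p6, matched by gene identifier for all 8 members. The number of arrays limits the precision. The fits were tested on simulated data with known changes.

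Replicate numbers did not pair the arrays and were not used. Tried in turn were a fit of every probe set, a stricter level (8.65, the 75th percentile), adding 16 to each unlogged intensity, quantile normalization, 1 fit of all groups, the replicate block, SAM with 20 relabelings, any probe set of a gene, and leaving out each array. List counts without Control replicate 1 or OVA/PM replicate 3, and Ptx3 with single arrays left out, were added after seeing the data.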

Additional observations from a re-analysis of the deposited data

How the results depend on the processing

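Of 377 log2 fold changes of the members under settings that kept all arrays, 360 kept their direction and side of the threshold, 9 passed only there, 7 no longer passed, and 1 reversed: Cp in OVA/PM against OVA, at -0.37 by its probe set with the lowest p. SAM called 6 members in OVA/PM against Control, Hp as lower, among 9638 of 22568 probe sets called, 5187 of them lower. In OVA against Control 0 members passed with the replicate block, and 2 to 4 with 1 array left out (2 without OVA replicate 3 or Control replicate 2). In OVA against PM, 0 passed with no filter, where 4 of 45101 probe sets did. In the fit of all groups 4 passed, among 3296 of 22434 probe sets, and by SAM 4, among 6258. With 1 array left out 0 to 5 passed, while the count over all probe sets ran from 4 to 3584.

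The replicate block was run although the numbers do not pair the arrays: deviations from the group means had a median correlation of -0.0625 over 18 same-numbered pairs, 3 of which exceeded 0.1. Only 2 of 12 arrays were closest to one of their own number. Over all probe sets, calls in OVA against Control numbered 89 with the block and 4325 without it. The block changed no other call of a member.

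With 1 array left out, 22 of 336 values of the members reversed, all of them of members that had not passed. In PM against Control the range was -0.18 to 0.16 for Lcn2 and -0.20 to 1.12 for Slpi, and for Lbp in OVA/PM against Control -0.016 to 0.26. In OVA/PM against OVA it was -0.74 to 0.52 for Saa3, -0.56 to 0.12 for Lcn2, -0.20 to 0.51 for Reg3g and -0.27 to 0.22 for Cp. It was -0.10 to 0.043 for Hp in OVA/PM against PM, -0.31 to 1.01 for Slpi in OVA against PM, and, for the interaction, -0.60 to 0.077 for Lcn2 and -0.24 to 0.062 for Lbp. The cause was not tested.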
